A study of Rattus norvegicus with 12 samples.

Results

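The untreated INS-1 832/3 cells of this series were described on their own, as a baseline of which genes a widely used beta-cell line transcribes. INS-1 832/3 is a rat insulinoma line that makes and secretes insulin when glucose rises. It is a clone selected from INS-1 cells that had been transfected with a human insulin gene, so it stands for 1 clone and not for the cells of an islet. The members were the 3 libraries labelled as untreated control, chosen by their titles from 12 libraries in all. The labels give their genotype as WT, their medium as RPMI with 10% fetal bovine serum, and their incubation as 5% CO2 and 37 degrees C. The other 9 libraries came from cells given urolithin B, islet amyloid polypeptide (IAPP) or both, and they were not used here. No treatment was compared, so the values below are levels with the spread over 3 libraries and carry no p-value.

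Beta cells make insulin as a precursor that is cut by prohormone convertases and stored with zinc in dense granules. When glucose is metabolised, ATP closes the KATP channel, the membrane depolarises, voltage-gated calcium channels open and the granules fuse. Receptors for incretins, fatty acids and neurotransmitters adjust this response through cyclic AMP, calcium and inhibitory G proteins, and a small set of transcription factors keeps the insulin genes active.

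Counts came from 3prime sequencing, in which each read is meant to mark the end of a polyadenylated transcript. Whether all reads did so was not tested. Counts were therefore not divided by transcript length. Levels of different genes are compared as if each read stood for 1 transcript end. A level is given in CPM, the counts of a gene for every 1000000 counts of its library. The 3 totals were 5389801, 5422330 and 4893146 counts in replicates 1, 2 and 3. A total of 3 counts, used here as the limit that a count of 0 allows, stood for 0.557, 0.553 and 0.613 CPM. Over the 3 libraries together the limit was 0.191 CPM, and these limits cover counting error only. A gene was called detected at 1 CPM or more in all 3 libraries, abundant at 100 CPM or more in all 3, and listed at 0 where no library had a count.

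Of 31368 gene names in the table, 14758 (47.0%) were detected, 1552 (4.95%) were abundant and 8298 (26.5%) were listed at 0. The median gene stood at 1.53 CPM over all names and at 6.04 CPM over the 23070 names with at least 1 count. These shares are the background against which the lists below are read. The 10 genes with the highest mean took 24.4% ± 4.53 (SD, n = 3) of all counts.

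Replicate 1 stood apart from replicates 2 and 3, so the main levels are given by library and the others as a mean, with or without its SD. It had counts in 22418 genes, against 19827 and 19803 in the others, and 2154 genes had counts in replicate 1 alone. Only 238 and 239 genes had counts in replicate 2 or 3 alone. Mitochondrial rRNA took 8.33% of its counts against 13.1% and 13.5%. The common biological coefficient of variation, estimated with edgeR over 15111 genes with a mean of 10 counts or more, was 0.316 with all 3 libraries and 0.0757 without replicate 1, there over the 13942 genes that then had such a mean. The labels call the replicates biological and do not say whether they were separate cultures.

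Ins1 had the highest level of the nuclear genes whose name is not a placeholder. The stretches of genome around the starts of Ins1 and Ins2 are printed because the 2 genes are copies of each other, with Gcg beside them as a gene of another islet cell that stood far lower. Rats have 2 insulin genes, of which Ins1 is a retroposed copy of Ins2 that brought part of the older promoter along. The sequences run from 250 bases before to 50 bases after the RefSeq start of each gene in the GRCr8 build. Ins1 lies at chr1:261185869-261186168 on the plus strand, Ins2 at chr1:207273756-207274055 on the minus strand and Gcg, the proglucagon gene, at chr3:67531484-67531783 on the minus strand. Capitals mark, on either strand, TAAT, the core bound by many homeodomain factors such as PDX1, the E-box letters CATCTG, the cyclic AMP element letters TGACGTC and the TATA box letters TATAAA.
Ins1: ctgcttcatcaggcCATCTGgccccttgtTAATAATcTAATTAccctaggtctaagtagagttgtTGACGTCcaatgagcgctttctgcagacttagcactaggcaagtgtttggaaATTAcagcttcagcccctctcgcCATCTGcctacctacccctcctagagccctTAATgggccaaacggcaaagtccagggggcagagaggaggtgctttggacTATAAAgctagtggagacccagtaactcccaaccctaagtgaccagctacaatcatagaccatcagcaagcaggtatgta
Ins2: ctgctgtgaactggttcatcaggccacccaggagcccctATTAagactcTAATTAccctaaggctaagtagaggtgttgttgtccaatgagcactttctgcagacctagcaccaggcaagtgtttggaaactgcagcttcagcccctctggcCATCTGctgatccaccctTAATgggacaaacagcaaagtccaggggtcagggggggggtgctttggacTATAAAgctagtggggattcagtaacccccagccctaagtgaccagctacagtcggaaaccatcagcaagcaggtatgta
Gcg: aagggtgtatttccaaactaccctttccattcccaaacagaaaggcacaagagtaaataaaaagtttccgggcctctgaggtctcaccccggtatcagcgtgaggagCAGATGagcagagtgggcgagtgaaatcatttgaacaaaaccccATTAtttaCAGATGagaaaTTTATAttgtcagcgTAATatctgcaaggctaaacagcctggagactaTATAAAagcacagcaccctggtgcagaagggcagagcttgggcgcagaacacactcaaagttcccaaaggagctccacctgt

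The Ins1 and Ins2 stretches were identical at 250 of 288 aligned bases (86.8%), while Ins1 and Gcg shared 145 of 270 (53.7%). TAAT, counted on both strands with overlaps, occurred 6 times in Ins1, 4 times in Ins2 and 2 times in Gcg, and 60.6% of 33469 RefSeq rat promoters of this length hold it. CATCTG occurred at 236 and 110 bases before the Ins1 start, at 98 before the Ins2 start and 2 times in Gcg, and 16.6% of promoters hold it. TGACGTC was found in Ins1 alone of these 3, at 185 bases before the start, and is held by 3.22% of promoters. TATAAA lay 30 bases before both insulin starts and 80 and 32 bases before the Gcg start, and 14.2% of promoters hold it. A match of letters is a description and not a binding site.

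Insulin led the islet hormones, with far less proglucagon and ghrelin. Ins1 stood at 9239, 13367 and 11098 CPM in replicates 1, 2 and 3, a mean of 11234 ± 2068 CPM (SD, n = 3) and rank 7 of all gene names. Ins2 stood at 2623, 3745 and 3503 CPM, at rank 17. Replicate 1 was the lowest for both genes. The ratio of Ins1 to Ins2 was 3.52, 3.57 and 3.17 in the 3 libraries, so Ins1 was above Ins2 in each, and the ranges of the 2 genes did not overlap. With 3 pairs, an exact two-sided permutation test cannot give a p under 0.25, so no test was made. Together they took 1.45% ± 0.263 (SD, n = 3) of all counts. Whether reads of the human insulin gene of this clone were counted with a rat gene was not tested.

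Gcg, which encodes glucagon and glucagon-like peptide 1, stood at 22.3, 93.9 and 75.2 CPM. The level in replicate 1 was well under that of the other 2 libraries, and Ins1 was 415, 142 and 148 times Gcg. Ghrl, the ghrelin gene, had 40, 32 and 16 counts, or 7.42, 5.90 and 3.27 CPM. Sst (somatostatin), Ppy (pancreatic polypeptide), Pyy (peptide YY) and Iapp were listed at 0 in all 3 libraries. The other 4 of 8 islet hormone genes (50%) were detected, a share near the 47.0% of all gene names.

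Iapp is the gene of the peptide that other cells of the series were given, and it is known as a product of rat beta cells. It had 0 of 15705277 counts. In the RefSeq table Iapp overlaps 1 gene that the count table also lists, Slco1a5, an organic anion transporter gene, which stood at 43.8, 56.8 and 49.0 CPM. Whether reads of Iapp were counted for Slco1a5 or left out was not tested, and the 0 is given as the table lists it.

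Of 47 other peptide hormone and neuropeptide genes, 13 (27.7%) were detected, against 47.0% of all gene names. Another 7 were listed at 0 and 27 lay between, and the median of the list was 0.247 CPM. Igf2, the fetal insulin-like growth factor, stood at 475, 549 and 654 CPM and Nucb2, the precursor of nesfatin, at 268, 391 and 430.4 CPM. Npy (neuropeptide Y) was at 49.5, 31.4 and 29.2 CPM and Cck (cholecystokinin) at 10.9, 19.9 and 19.6 CPM. The next highest, Sct (secretin), had a mean of 8.54 CPM, so only Igf2 and Nucb2 were abundant. Calcb, Ucn, Nppb, Avp, Pmch, Insl3 and Insl5 were listed at 0. Ucn3, the urocortin of mature beta cells, had 3, 1 and 3 counts.

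The enzymes that cut and trim prohormones were nearly all present, with 19 of 20 detected, a median of 49.9 CPM and 8 abundant. Pcsk2, the convertase that completes proinsulin cleavage, stood at 1171, 1321 and 1596 CPM. Pcsk1, which makes the first cut, stood at 155, 166 and 199.9 CPM. Pcsk2 was 7.56, 7.97 and 7.99 times Pcsk1, and their ranges did not overlap. Cpe, the carboxypeptidase that removes the exposed basic residues, was at 882 ± 37.6 CPM (SD, n = 3). Scg5, the chaperone of Pcsk2, was at 503, 398 and 355 CPM, and Pcsk1n, an inhibitor of Pcsk1, at 83.5, 76.9 and 62.7 CPM. Pam, which amidates peptides, had a mean of 224 CPM. Among the chaperones of this list Pdia3, a disulfide isomerase, stood at 471 ± 77.4 CPM and Ero1b, the oxidase of the pancreatic endoplasmic reticulum, at 192 ± 11.1 CPM. Furin, the convertase of the constitutive pathway, had only 8, 7 and 5 counts, and Ctsh, a cathepsin, had 2, 0 and 0.

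**Figure D1:**
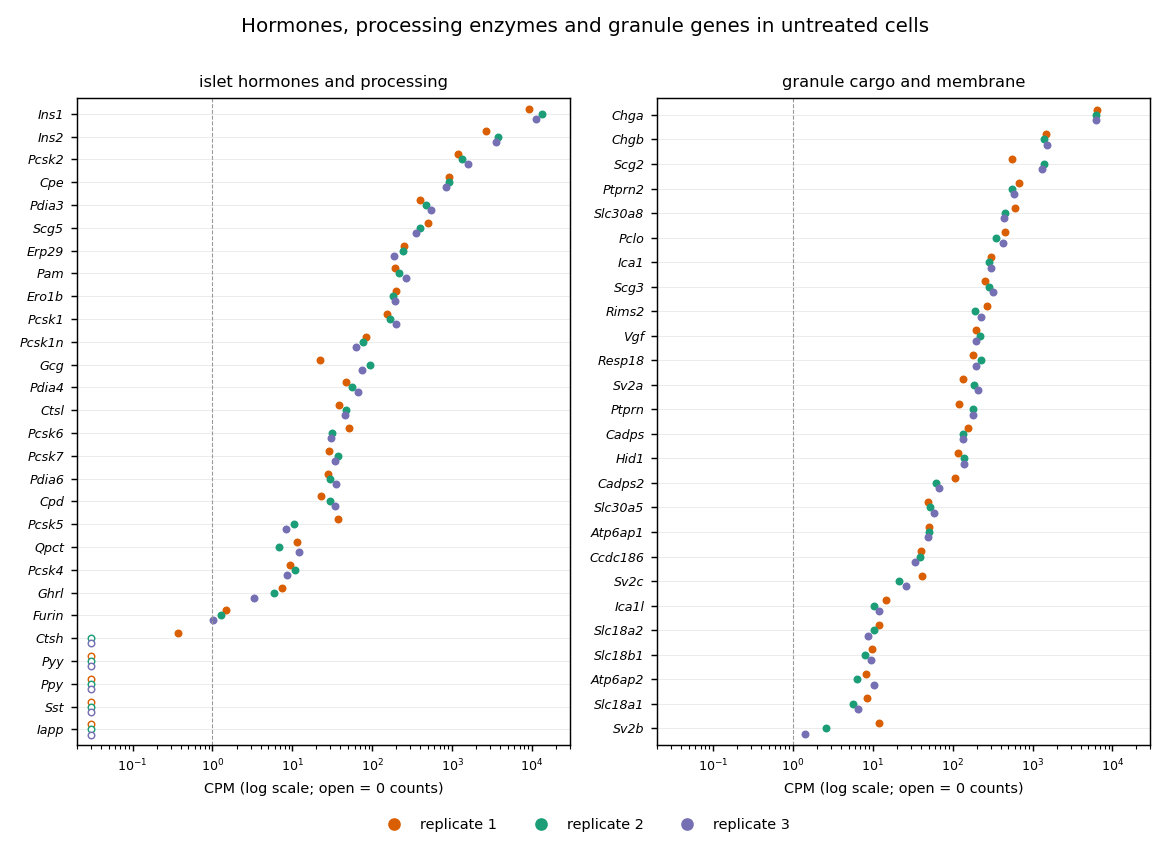
CPM on a log axis for each islet hormone, processing and granule gene, with 1 point per library coloured by replicate, open points at the left edge for 0 counts and a dashed line at 1 CPM. Ins1 and Ins2 lead the left panel, Iapp, Sst, Ppy and Pyy have open points alone, and Chga leads the right panel with its 3 libraries on top of each other at 6331, 6274 and 6295 CPM.

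All 26 granule genes in the table were detected and 15 were abundant, with a median of 152 CPM. Chga, the granin that drives granule formation, stood at 6331, 6274 and 6295 CPM, at rank 10, and its highest library was 1.01 times its lowest. Chgb, its relative, stood at 1463, 1382 and 1503 CPM, and Chga was 4.35 ± 0.176 times Chgb (SD, n = 3). Scg2, another granin, was less even, at 558, 1376 and 1311 CPM, with replicate 1 lowest. Scg3, which anchors chromogranin A to the granule membrane, was at 288 ± 31.3 CPM.

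Membrane proteins of the granule followed. Ptprn2 and Ptprn, the 2 phosphatase-like granule proteins known as type 1 diabetes autoantigens, stood at 679.8, 557 and 580.4 CPM and at 122, 181 and 181 CPM. Ptprn2 was above Ptprn in each library. Slc30a8, the zinc transporter that loads the granule for insulin crystals, was at 612, 449 and 436 CPM. The active zone scaffold gene Pclo had a mean of 410.2 CPM, and Ica1, another autoantigen, 296 ± 11.4 CPM. The 2 vesicular monoamine transporters were low, Slc18a2 at 12.1, 10.5 and 8.79 CPM and Slc18a1 at 8.53, 5.72 and 6.54 CPM, and their ranges did not overlap.

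Of 48 genes of the exocytosis machinery, 44 were detected, 6 were abundant and none was listed at 0, with a median of 43.0 CPM. Syt7, a calcium sensor of beta-cell exocytosis, led at 832, 907 and 889 CPM. Sytl4, the granuphilin that docks insulin granules, was second at 343, 321 and 301 CPM, and Syt7 was 2.42 to 2.96 times as high. Snap25, the plasma membrane SNARE, stood at 200.2 ± 12.8 CPM. The partner SNAREs were lower, Vamp2 at 80.8 ± 7.04 CPM and Stx1a at 43.5 ± 6.31 CPM.

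Among the Rab3 GTPases, Rab3c was highest at 122, 108 and 119 CPM and Rab3d next at 107, 92.4 and 103 CPM, with no overlap. Rab3b, at 110.0, 79.7 and 71.1 CPM, overlapped both, and Rab3a was lowest at 40.1, 62.0 and 56.8 CPM. Rab27a and Rab27b, which hold granules through granuphilin-type effectors, were each at a mean of 10.1 CPM. The 4 members below the threshold were Unc13d, Sytl1, Sytl2 and Cplx3, with means from 0.130 to 1.74 CPM.

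Islet transcription factors were present as a set. Of 33 factors 32 were detected and 11 were abundant, with a median of 64.6 CPM, and 1 was listed at 0. St18, a zinc finger factor of endocrine cells, led at 503, 462 and 537 CPM. Mafa, which activates the insulin promoter in mature beta cells, followed at 368, 358 and 366 CPM, and Pax6, a factor of all islet endocrine cells, at 379.6, 342 and 314 CPM. St18 was above Mafa in each library, and the ranges of Mafa and Pax6 overlapped. Rfx6 stood at 325, 232 and 262 CPM, and Tox3, Tshz1 and Rfx3 at means of 191, 189.8 and 185 CPM, 3 neighbours whose ranges overlapped.

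Pdx1, the homeodomain factor that binds the insulin promoter, stood at 94.99, 89.6 and 92.8 CPM, and Isl1 at 79.2, 78.9 and 80.1 CPM. In CPM of the library total, Isl1 and Mafa had the smallest ratios of highest to lowest library among the islet factors, at 1.01 and 1.03. Mnx1 stood at 86.5, 102 and 106 CPM and Insm1 at 165, 153 and 153 CPM. Nkx2-2 was at 48.6, 39.3 and 37.8 CPM and Nkx6-1, which keeps beta cells from other islet fates, at 33.8, 24.5 and 27.6 CPM. The forkhead pair differed widely, Foxa2 at 168, 157 and 176 CPM and Foxa1 at 4.64, 3.87 and 3.47 CPM. Hnf4a, a gene of inherited diabetes, was at 35.7 ± 7.92 CPM.

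The member listed at 0 was Neurod1, a basic helix-loop-helix activator of the insulin genes that beta-cell lines are known to express. Its relative Neurod2, best known from neurons, stood at 50.7, 63.6 and 57.4 CPM. No other gene of the count table overlaps Neurod1 in the RefSeq table. Whether its reads were lost was not tested.

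Of 24 factors of other islet cells and of progenitors, 10 (41.7%) were detected and 6 were listed at 0, shares near the 47.0% and 26.5% of all gene names. Their median was 0.871 CPM, against 1.53 CPM over all names. The alpha-cell factor Irx2 had 0, 0 and 1 counts, and Irx1 was listed at 0. The delta-cell factor Hhex had 7, 0 and 0 counts. Pou3f4, Neurog3, the factor that starts the endocrine lineage, Nkx6-2, Nkx6-3 and Sox2 were listed at 0 too, and Ptf1a, the acinar factor, had 0, 0 and 2 counts.

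Some members of this list were well above the rest. Etv1, an ETS factor, was abundant at 679, 826 and 836 CPM. Gata4 was at 51.6, 33.2 and 33.7 CPM and Gata6 at 25.2, 19.7 and 16.1 CPM. Sox9, a factor of ducts and progenitors, was at 12.6, 5.16 and 6.34 CPM.

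**Figure D2:**
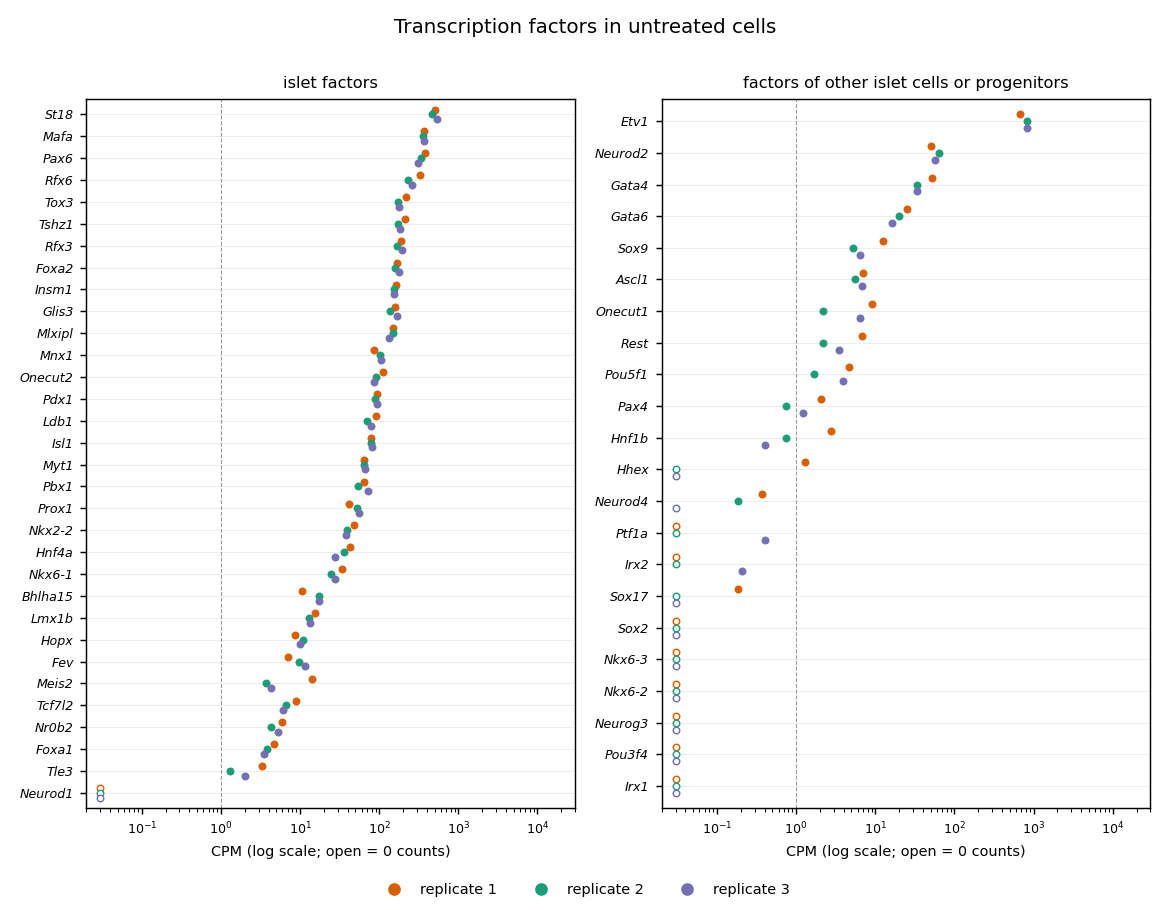
CPM on a log axis for islet transcription factors (left) and factors of other islet cells or progenitors (right), with 1 point per library and open points for 0 counts. All islet factors shown but Neurod1 lie right of the dashed line at 1 CPM, while many in the right panel lie left of it and Etv1 stands apart at the top.

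Genes of glucose uptake and use were led by Acly, a citrate lyase, and by Slc2a2, the GLUT2 transporter. Of 43 such genes 37 were detected and 15 abundant, with a median of 55.5 CPM. Slc2a2, the main glucose transporter gene of rodent beta cells, stood at 556, 528 and 528 CPM, while Slc2a1, the transporter of most other cells, was at 18.9, 24.0 and 20.03 CPM. Of the hexokinases with high affinity, Hk1 was at 5.57, 0.738 and 1.23 CPM and Hk2 at 11.7, 3.32 and 1.63 CPM, each highest in replicate 1.

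Acly, which feeds lipid synthesis, stood at 1122, 957 and 974 CPM. Pgam1, of lower glycolysis, had a mean of 513 CPM and the malate dehydrogenase Mdh2 one of 399 CPM. Gpd2, the mitochondrial arm of the glycerol phosphate shuttle, was at 327, 300.2 and 334 CPM. Pc, the pyruvate carboxylase, was even at 56.2, 57.2 and 55.8 CPM. G6pc2, an islet glucose-6-phosphatase subunit, and Pck1, of gluconeogenesis, were listed at 0.

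Of 20 genes that beta cells are known to keep low, 15 were detected and none was abundant. Their median of 7.44 CPM was close to the 6.04 CPM of all names with a count. Ldha, lactate dehydrogenase A, had 3, 1 and 1 counts. Slc16a1, the lactate and pyruvate carrier, was at 12.1, 6.27 and 9.40 CPM. The highest members were Mgst1, a glutathione transferase, at 52.1, 53.3 and 55.2 CPM, and Oat, an aminotransferase, at 26.7, 35.2 and 38.4 CPM.

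Of 4 KATP channel genes the pair known from beta cells was abundant. Kcnj11, the pore Kir6.2, stood at 166, 157 and 153 CPM, and Abcc8, the sulfonylurea receptor SUR1, at 127, 137 and 138 CPM. Kcnj11 was 1.31, 1.151 and 1.11 times Abcc8, with no overlap of their ranges. The vascular pore gene Kcnj8 had 0, 1 and 0 counts. The muscle receptor gene Abcc9 had 48, 4 and 3 counts, nearly all in replicate 1.

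Of 19 voltage-gated calcium channel genes 18 were detected and 7 abundant, with a median of 36.4 CPM. Among the pores, Cacna1a (P/Q type) stood at 379, 532 and 567 CPM and Cacna1c (L type) at 501, 401 and 452 CPM. Their ranges overlapped and their order turned, since Cacna1c was higher in replicate 1 and Cacna1a in the other 2 libraries. Cacna1d, the other L-type pore of beta cells, was at 312, 226 and 265 CPM, and Cacna1c was 1.61, 1.78 and 1.71 times as high. Cacna1e (R type) was at 154, 120.4 and 132 CPM and Cacna1g (T type) at 34.3, 47.9 and 50.7 CPM. The auxiliary subunits Cacnb2, Cacna2d1 and Cacnb3 had means of 433, 343 and 134 CPM. Cacna1s and Cacna1f, the pores of skeletal muscle and retina, were the lowest, at 2.76 and 1.32 CPM.

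Of 14 sodium channel genes 7 were detected, a share near the 47.0% of all gene names, and none was abundant in all 3 libraries. Scn3a led at 116, 98.1 and 104 CPM, followed by the auxiliary subunit Scn3b at 86.9 ± 11.3 CPM, Scn8a at 84.3 ± 10.6 CPM and Scn2a at 59.3 ± 4.88 CPM. Scn3a was above Scn8a in each library, while Scn3b and Scn8a had overlapping ranges. Scn9a, Scn2b and Scn4b were listed at 0. Nalcn, the sodium leak channel, was at 13.2, 1.84 and 3.88 CPM.

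Of 44 potassium channel genes 35 were detected, 2 were abundant and 4 were listed at 0, with a median of 12.1 CPM. Kcnb2, a delayed rectifier, stood at 774, 576 and 653 CPM and was highest in every library. Kcnma1, the large calcium-activated channel, was at 219, 156 and 169 CPM. Kcnj6, an inward rectifier coupled to G proteins, had a mean of 102 CPM. Kcnmb2, the beta subunit of Kcnma1, was at 84.6 ± 3.18 CPM and Kcnk16, the leak channel TALK-1 of beta cells, at 63.3 ± 6.45 CPM. The genes at 0 were Kcnc4, Kcna1, Kcna3 and Kcna5.

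**Figure D3:**
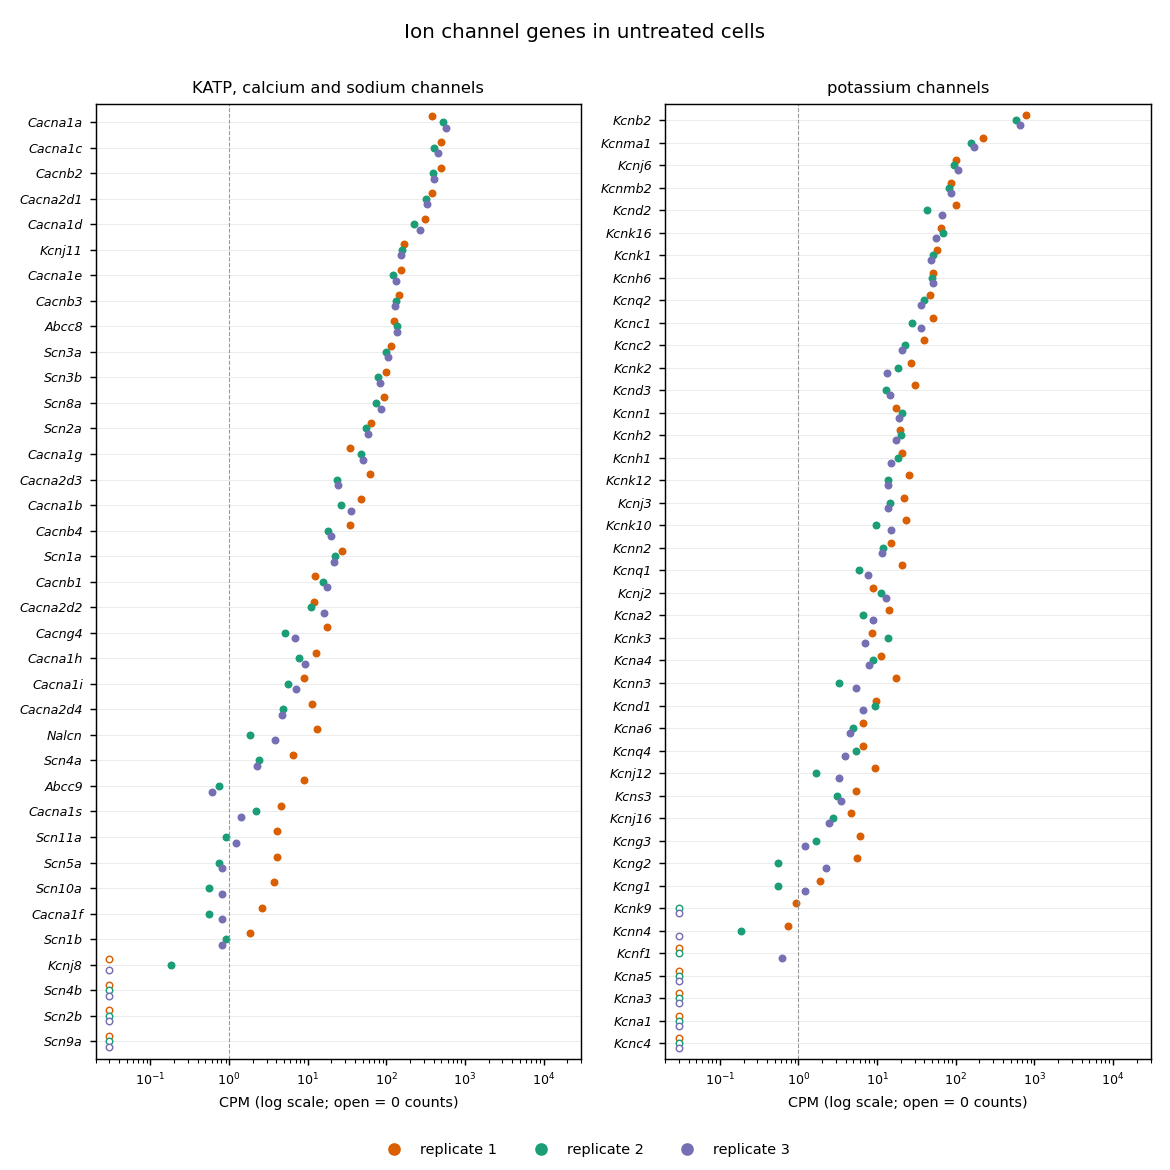
CPM on a log axis for KATP, calcium and sodium channel genes (left) and potassium channel genes (right), with 1 point per library, open points for 0 counts and a dashed line at 1 CPM. Kcnj11 and Abcc8 sit above 100 CPM with Kcnj8 near 0, Kcnb2 stands apart at the top of the right panel, and the points of replicate 1 lie to the right for many low genes.

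Among other channels and calcium pumps 47 of 58 were detected and 11 abundant, with a median of 21.1 CPM. Trpm3, a cation channel opened by steroids and heat, led at 602, 677 and 726 CPM. Atp2b1, a plasma membrane calcium pump, was at 605 ± 41.6 CPM, Atp2a2 (SERCA2) at 386 ± 22.9 CPM and Atp2a3 (SERCA3) at 148 ± 8.03 CPM. Slc8a1, the sodium-calcium exchanger, was at 322, 222 and 238 CPM. Of the cation channels that calcium opens, Trpm5 was at 1.40 ± 0.467 CPM and Trpm4 at 6.49, 2.03 and 2.66 CPM, highest in replicate 1. Gjd2, the connexin that couples beta cells, had 8, 3 and 6 counts, and Gjb1, another connexin gene, was listed at 0.

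Receptors for hormones that act through G proteins were led by the receptor of GIP, the incretin of the upper gut. Of 37 genes 18 were detected, near the 47.0% of all names, 1 was abundant and 9 were listed at 0, with a median of 1.59 CPM. Gipr stood at 173, 157 and 151 CPM and Glp1r, the receptor of glucagon-like peptide 1, at 35.6, 29.3 and 27.6 CPM. Gipr was 4.85, 5.36 and 5.48 times Glp1r. Below Gipr came Crhr1, the receptor of corticotropin-releasing hormone, at 25.98, 51.5 and 52.7 CPM, Sstr3 at 36.9, 39.7 and 28.2 CPM and Gcgr, the glucagon receptor, at 55.1, 26.2 and 18.6 CPM. The ranges of these 3 and of Glp1r overlapped, so they cannot be ordered. Gcgr was highest and Crhr1 lowest in replicate 1. Adcyap1r1, the PACAP receptor, was at 33.4, 29.5 and 19.01 CPM.

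Somatostatin receptors were measured as Sstr3 with 7, 4 and 1 counts of Sstr1, while Sstr2, Sstr4 and Sstr5 were listed at 0. In the RefSeq table Sstr2 overlaps Slc39a11, a zinc transporter gene at 146 ± 29.3 CPM, and whether Sstr2 reads were counted there was not tested. The calcitonin receptor gene Calcr, which forms amylin receptors with RAMP proteins, had 31, 2 and 0 counts. Of the RAMP genes, Ramp2 was at 14.7, 18.996 and 22.3 CPM, Ramp1 at 5.94, 2.40 and 3.47 CPM and Ramp3 under 1 CPM in each library. The other receptors listed at 0 were Npy5r, Ghsr, Cckbr, Avpr1a, Mc4r and Gpr50.

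Of 54 receptors for neurotransmitters, nucleotides and nutrients 31 (57.4%) were detected, against 47.0% of all gene names. Only 2 were abundant, and the median of the list was 3.59 CPM. Htr2a, a serotonin receptor coupled to Gq, led by far at 414, 1193 and 885 CPM, and it was also among the genes with the widest spread, at 2.88 times between its highest and lowest library. Gpr158, an orphan receptor, stood at 262, 201 and 249.9 CPM, below Htr2a in each library. Chrm3, the muscarinic receptor through which acetylcholine stimulates insulin release, was at 156, 74.0 and 79.3 CPM. The GABA-B pair Gabbr2 and Gabbr1 stood at 93.5 ± 20.5 and 42.3 ± 4.71 CPM. Adra2a, the adrenergic receptor that inhibits secretion, was at 27.5, 31.5 and 24.7 CPM. The receptors of short-chain fatty acids, Ffar3 and Ffar2, were at 37.6 ± 6.23 and 6.63 ± 0.476 CPM. Ffar1, the long-chain fatty acid receptor of beta cells, had 3, 0 and 2 counts. Gpr119, a lipid amide receptor, was at 15.6, 22.3 and 19.01 CPM. Adrb1, Drd1, Htr1a, Htr2b and Grm4 were listed at 0.

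**Figure D4:**
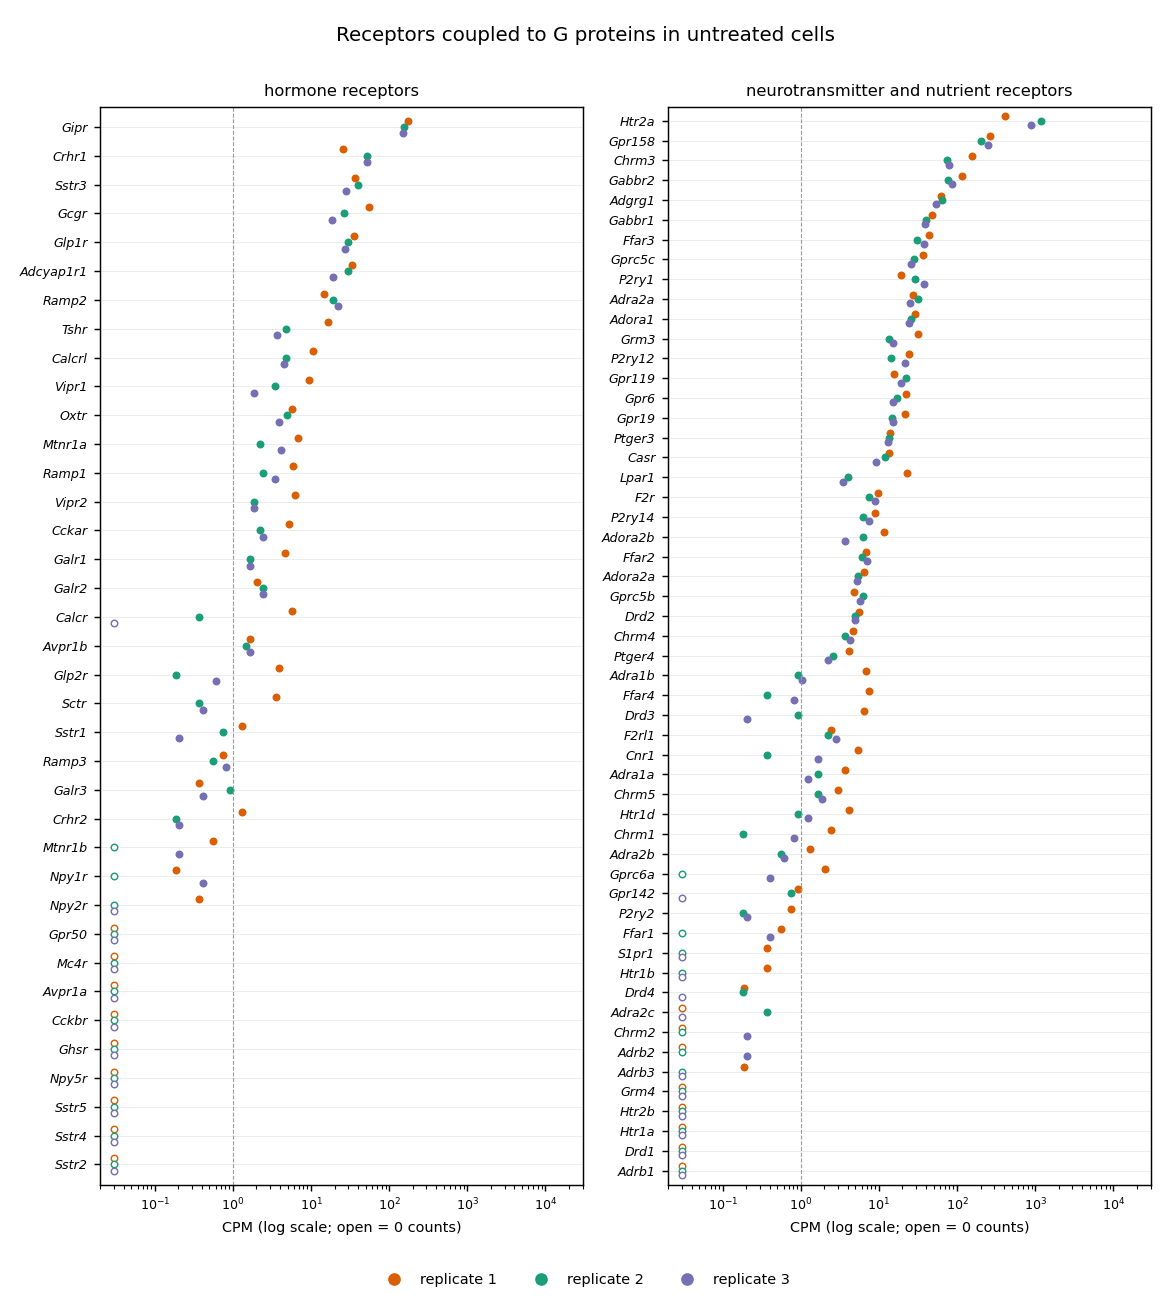
CPM on a log axis for hormone receptors (left) and for neurotransmitter and nutrient receptors (right) coupled to G proteins, with 1 point per library, open points for 0 counts and a dashed line at 1 CPM. Gipr lies above the other hormone receptors in all 3 libraries, and Htr2a at 414, 1193 and 885 CPM lies above all others in the right panel.

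Growth factor and cytokine receptors were found in 48 of 54 cases, with 7 abundant and a median of 16.9 CPM. Prlr, the prolactin receptor that drives beta-cell growth in pregnancy, stood at 547, 536 and 632 CPM and Ghr, the growth hormone receptor, at 210.2, 193 and 200.5 CPM. Igf1r was at 487, 379.5 and 414 CPM and Insr, the insulin receptor, at 31.2, 11.1 and 15.7 CPM, so Igf1r was 15.6 to 34.3 times as high. Ntrk3, a neurotrophin receptor, had a mean of 189 CPM, Bmpr2 168 CPM and Il6st, the shared receptor of the interleukin 6 family, 146 CPM. Il1r1, the receptor of interleukin 1, was at 30.1, 54.6 and 51.9 CPM. No member was listed at 0.

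Nuclear receptors were detected in 30 of 34 cases with a median of 12.8 CPM and 1 abundant. This was Nr3c1, the glucocorticoid receptor, at 139.5, 141 and 139.6 CPM, one of the 5 genes most even in CPM at a mean of 100 CPM or more. Thrb, a thyroid hormone receptor, stood at 90.4, 147 and 147 CPM and Nr3c2, the mineralocorticoid receptor, at 72.4, 81.5 and 84.6 CPM. Rxrb was at 27.6 ± 3.80 CPM while Rxra had 20, 4 and 4 counts.

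Downstream of the receptors, 37 of 40 signalling genes were detected and 16 abundant, with a median of 56.7 CPM. Gnas, the stimulatory G protein, was at rank 18 of all names with 2933, 3243 and 3333 CPM, and it was 10.9 to 13.2 times the inhibitory gene Gnai2. Pde4d, a cyclic AMP phosphodiesterase, stood at 1442, 1229.9 and 1375 CPM. Camk2b, a calmodulin kinase, was at 688 ± 59.9 CPM. Of the 2 genes for cyclic AMP sensors of the EPAC type, Rapgef4 was at 52.9, 26.6 and 33.3 CPM and Rapgef3 at 2.41, 1.11 and 1.43 CPM. Gnaz and Rgs4 were listed at 0.

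Markers of beta cells and of other cell types were set beside the label. In a panel of 9 beta-cell genes drawn up after values were seen, 7 were detected, all but Iapp and G6pc2. The panel leaves out Neurod1, listed at 0, and Ucn3, with 3, 1 and 3 counts, and so is a description and no check of the label. Of 22 acinar markers 5 (22.7%) were detected and 11 were listed at 0, against 47.0% and 26.5% of all gene names. The summed level of these markers was 18.1 to 30.2 CPM. Amy2a3, Cpa1, Prss1, Prss2, Pnlip and Clps, the major pancreatic enzyme genes, were among those at 0, and the highest was Cela3b at 7.79, 5.72 and 10.4 CPM. Of 16 markers of alpha, delta, PP and epsilon cells 4 (25%) were detected. Among them Gc, which encodes the vitamin D binding protein, stood out at 543, 651 and 679 CPM, while Ttr was listed at 0.

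Of 20 immune markers 5 (25%) were detected, against 47.0% of all gene names. Their list had a summed level of 61.0 CPM in replicate 1 and of 22.7 and 20.6 CPM in the others. The 5 detected were led by Laptm5 at 9.83, 4.79 and 5.72 CPM and Cd8a at 9.09, 4.43 and 4.50 CPM. Itgam, Cd4 and Csf1r followed, at means of 4.31, 3.91 and 3.89 CPM. Ptprc, the pan-leukocyte gene, had 49, 3 and 2 counts, and Ms4a1, Cd79b and Lyz2 were among those listed at 0. The part of such cells in the levels above was not tested. Of 12 hepatocyte markers 3 (25%) were detected, with a summed level of the list of 23.4, 7.38 and 9.40 CPM. The 3 were Cps1, Serpina1 and Apob, at means of 3.68, 3.26 and 2.05 CPM. Alb had 7, 0 and 0 counts, and Ttr and Ahsg were listed at 0. Of 12 endothelial markers 8 (66.7%) were detected, against 47.0% of all gene names. Their list had sums of 145, 80.8 and 86.2 CPM, led by Flt1 at 56.6, 23.1 and 19.6 CPM, while Cldn5 was listed at 0. In each of these 3 lists replicate 1 had the highest sum. Replicate 1 was also the highest library for 16160 of the 23070 names with at least 1 count, of whatever kind.

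Of 14 fibroblast and stellate markers 5 (35.7%) were detected, against 47.0% of all gene names. Fn1 (fibronectin) stood at 263, 367 and 320.2 CPM and Thy1 at 124, 112 and 115 CPM. The collagen gene Col1a1 was at 34.3, 11.6 and 24.1 CPM. Another collagen gene, Col1a2, and Dcn were listed at 0, and Vim (vimentin) had 4, 2 and 2 counts. Of 14 duct markers 8 (57.1%) were detected, against the same 47.0%. Krt8 led at 397, 316 and 322 CPM, then Epcam at 93.9, 81.7 and 78.9 CPM, both epithelial genes. Prom1, Car2 and Krt7 were detected too, at means of 9.50, 8.18 and 6.65 CPM, while Krt19 had 2, 0 and 1 counts. Krt18, the usual partner of Krt8, was at 11.9, 7.56 and 6.54 CPM.

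Neuronal genes, many of them shared with endocrine cells, were detected in 17 of 25 cases (68%), against 47.0% of all gene names. Uchl1, a ubiquitin hydrolase of neurons and endocrine cells, stood at 714, 713 and 749 CPM. Gad1 and Gad2, the enzymes that make GABA, were at 43.8, 35.0 and 31.1 CPM and at 34.3, 24.9 and 28.4 CPM, with overlapping ranges. Slc32a1, the vesicular GABA transporter of neurons, was listed at 0. Of the serotonin and catecholamine genes, Ddc was at 80.0, 48.5 and 48.8 CPM, Tph1 had 5, 3 and 6 counts and Th 4, 3 and 1.

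Absence in this table was checked with genes that every cell needs. Of 157 subunits of the ribosome, proteasome, RNA polymerase II, chaperonin and protein translocation machinery, 156 were detected and none was listed at 0. The exception was Rpl22, with 9, 0 and 0 counts, beside other ribosomal protein genes of 20.6 CPM or more in every library. In a second list, drawn up after values were seen, of 26 genes abundant in nearly every cell, 21 were detected and 2 were listed at 0. These were Fth1, the ferritin heavy chain, and Tuba1b, a major alpha-tubulin. Their relatives Ftl1 and Tuba1a stood at 124 ± 21.1 and 558 ± 156 CPM. Tmsb4x, a thymosin, had 7, 3 and 4 counts beside 501 ± 77.1 CPM of Tmsb10. An entry of 0 or near 0 in this table, such as those of Iapp, Neurod1, Ldha or Vim, is therefore a value of the table and is not read here as absence of the transcript.

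By RefSeq positions, 8 of 69 list members at 0 (11.6%) overlap another gene of the count table, against 151 of 760 detected members (19.9%). Over all protein-coding genes matched, the shares were 17.7% at 0 and 23.5% among the detected. Tuba1b overlaps Tuba1c, which stood at 119.8 ± 4.45 CPM, while Fth1 overlaps no gene of the table.

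Among the 30 gene names of highest mean, 14 were of the mitochondrial genome, and their levels moved between libraries. The rRNA genes mt-Rnr2 and mt-Rnr1 stood at 63269, 98462 and 99627 CPM and at 20036, 32298 and 35367 CPM. The 13 mitochondrial coding genes together held 6.67% ± 2.27 (SD, n = 3) of counts, and none of them was highest in replicate 1. ATP6 stood at 10241, 22827 and 16704 CPM. Of the nuclear names, LOC310926 stood at 41901, 46319.6 and 53162 CPM, and LOC108351097 and LOC108352829, which RefSeq now names Rn45sl1 and Rn45sl2 after the ribosomal RNA precursor, at means of 15259.8 and 15050.2 CPM. How reads that match both of these were counted is not given in the sources used here.

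After the insulin and granule genes, the highest named nuclear genes were Gnas, Nnat, a membrane protein of the endoplasmic reticulum, at 3054, 2185 and 1979 CPM, the chaperones Hsp90ab1 and Hspa5 at means of 1800.3 and 1779.8 CPM, Dlg2 at 1554 ± 268 CPM, Pcsk2, Pde4d and Fam155a at 1267 ± 188 CPM. Dlg2, a synaptic scaffold gene, Pde4d and Fam155a are genes with very long introns. The counter used is not named, so whether reads in introns were counted is not known. Several of the channel genes above, such as Cacna1a, Cacna1c, Kcnb2 and Trpm3, are long too.

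Genes with very long introns were examined as a list of 24, drawn up after values were seen. All were detected and 21 were highest in replicate 1, as were 16160 of the 23070 names with at least 1 count. The median member stood in replicate 1 at 1.78 times the mean of the other 2 libraries, against 1.28 times over all genes. All genes include many at low levels, while the list had a median of 102 CPM. Over genes of 10 to 100 CPM the median ratio was 1.17 times, and over genes of 100 to 1000 CPM 1.10 times. Lsamp, a neuronal adhesion gene, had 44.3, 5.90 and 7.36 CPM, Csmd1 133, 31.4 and 35.2 CPM and Nrxn3 125, 22.9 and 20.2 CPM. The 3 members that were not highest there were Adarb2 at 1093, 1205 and 1319 CPM, Trpm3 and Ctnna2.

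The spread between libraries depended on the level. Over genes of 2 to 10 CPM the median coefficient of variation was 36.8%, against 20.6% from counting alone, and replicate 1 stood at 1.57 times the other 2 libraries in the median. Over genes of 100 to 1000 CPM these values were 9.68%, 3.46% and 1.10 times. Over the 38 genes above 1000 CPM the spread was wide again, with a median of 22.4% against 0.847% from counting. Replicate 1 stood there at 0.771 times the other 2 libraries in the median. Of the 30 highest names 14 were of the mitochondrial genome, and the median mitochondrial coding gene stood at 0.518 times. Ins1, Ins2, Chga and Gnas, also above 1000 CPM, stood at 0.755, 0.724, 1.01 and 0.892 times. Among the 15 genes with the widest spread at a mean of 100 CPM or more, 8 were genes of the mitochondrial genome, Trnn first with 25.6, 334 and 335 CPM. The others included Htr2a, Scg2, the adhesion gene Pcdh9 and the calmodulin kinase gene Camk4 at 82.4, 165 and 222 CPM. The most even in CPM were Psip1, Hs2st1, Chga, Nr3c1 and Zc3h15, whose highest library was at most 1.01 times the lowest. This evenness rests on scaling by the library total. The TMM factors of edgeR, an alternative scaling, were 1.12, 0.937 and 0.957 in replicates 1, 2 and 3. Genes this even in CPM are less even under that scaling.

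Chaperones of the endoplasmic reticulum, which fold proinsulin, ran the other way. All 28 genes of this list were detected, and the median member in replicate 1 stood at 0.757 times the mean of the other 2 libraries. Hspa5 (BiP) stood at 1341, 2033 and 1966 CPM, Hsp90b1 at 709.7, 1059 and 1087 CPM and Calr at 436, 604 and 567 CPM. The stress factor gene Ddit3 was at 19.1, 29.3 and 17.0 CPM and did not follow this order. The lower level of insulin, Gcg, Scg2 and chaperone genes in replicate 1 went with its lower mitochondrial share and its larger number of detected genes. Their part in those levels was not tested, and 1 library allows no test.

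**Figure D5:**
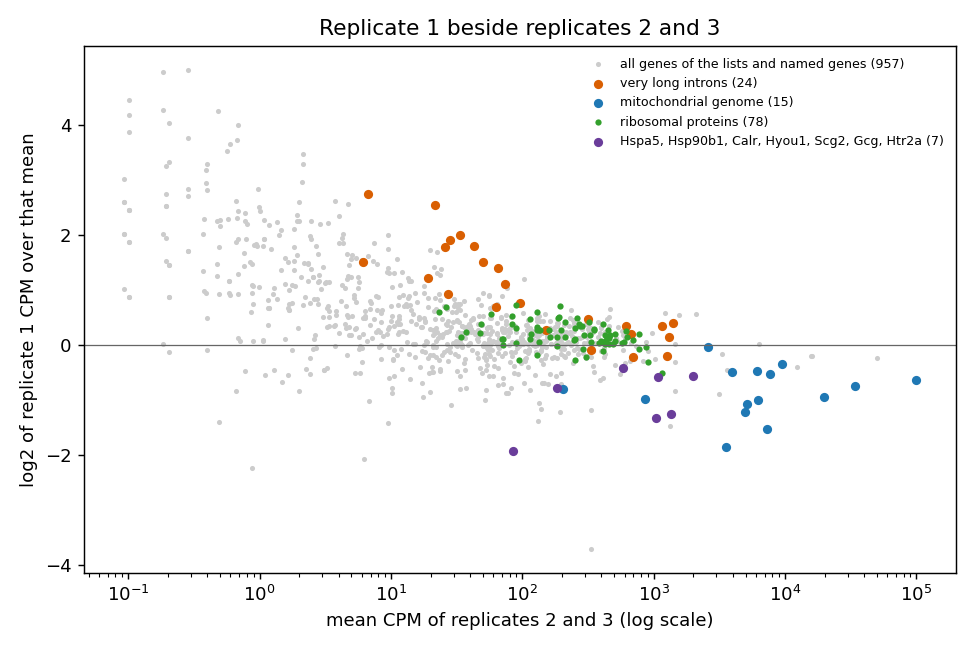
Log2 of the CPM in replicate 1 over the mean CPM of replicates 2 and 3 (vertical axis) against that mean on a log axis, for genes of the lists and named genes with counts on both sides. Genes with very long introns (orange) lie mostly above 0, the mitochondrial genes (blue) and the 7 genes in purple, Hspa5, Hsp90b1, Calr, Hyou1, Scg2, Gcg and Htr2a, lie below 0, the ribosomal protein genes (green) lie near it, and the cloud rises above 0 where levels are low.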

How the data were processed

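Poly(A) transcripts of 3 untreated control libraries were sequenced from their 3prime ends. The labels' protocols name a High Pure kit for the RNA and QuantSeq 3prime mRNA FWD for the libraries. FastQC, Bowtie2 and SAMtools are named without versions in the submitters' processing notes. No counter, strand setting, build or annotation is given in the sources used here, so reads of overlapping genes cannot be told apart. The authors deposited 1 table of raw read counts per gene, whole numbers with no normalization, which the series text says was corrected. Counts were divided by the library total to give CPM with pandas 2.3.3. Scaling by TMM and the coefficient of variation came from edgeR 4.0.16 in R 4.3.3, and alternative size factors from DESeq2 1.42.0. Both spread estimates were tested on simulated data. Names were matched to RefSeq GRCr8, where 20819 were found as symbols, and promoters are RefSeq's, aligned with Biopython 1.88.

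The members and the gene lists were chosen with earlier results of these data known. The rule for named genes took up to 8 of the highest members of each list, members at 0, paralogs and partners, the 30 highest names, and the 15 widest and 5 most even genes at a mean of 100 CPM or more. Other genes named, and the lists said to be drawn up after values were seen, were chosen after their values were seen. The replicate libraries were kept apart, with chi-square values per degree of freedom of 4.33 to 23.8 between pairs, so no pair agreed within sampling noise. Some list members are counted in their lists but not reported by name here or drawn in the plots of named genes.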

Additional observations from a re-analysis of the deposited data

How the results depend on the processing

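No paired analysis was possible because the results come from no test and a single group was used. Over 146 alternative values of 26 results, 128 stayed within the limits set (1.5 times for counts, 1 SD for levels) and 18 moved. Levels, counts and shares have no direction to change. The ratio of Ins1 to Ins2 was above 3 in each library, so leaving 1 out could not turn it. With mitochondrial rRNA left out of the library total, mean levels became 7133 CPM for Chga, 412 for Mafa, 104.7 for Pdx1, 609 for Slc2a2, 179.6 for Kcnj11 and 181 for Gipr, and the 10 most abundant genes held 14.5% of counts. At 5 CPM in all 3 libraries, 7 hormone receptors, 1 acinar, 0 immune and 0 hepatocyte markers were detected, and at 1 CPM on average 9 immune and 5 hepatocyte markers. The common biological coefficient of variation was 0.259 with TMM factors, 0.383 with no filter on low counts and 0.0757 to 0.406 with 1 library left out, the lowest without replicate 1. Leaving out 1 library moved no other result past these limits among those recomputed. For levels this was fixed in advance, since leaving out 1 of 3 libraries cannot shift a mean by 1 SD of the 3. It is therefore no check of how firm the levels are. Levels near or under 0.6 CPM rest on at most 3 counts per library and cannot be ordered.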

Other observations

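Of 40 cell cycle genes 36 were detected and 9 abundant, with Top2a at 312, 262 and 305 CPM, Mki67 at 235, 248 and 284 CPM and Pcna at 181, 167 and 155 CPM. Among the D cyclins, Ccnd2 stood at 51.4, 46.5 and 63.4 CPM and Ccnd3 at 31.2, 33.6 and 28.6 CPM, while Ccnd1 had 8, 4 and 0 counts. Their kinase Cdk4 was at 65.5, 65.5 and 67.8 CPM, and Cdk6 had 127, 11 and 11 counts, nearly all in replicate 1. Of the inhibitors, Cdkn1b (p27) was at 81.0 ± 9.89 CPM and Cdkn1a (p21) at 18.5 ± 3.29 CPM (SD, n = 3). Cdkn2a, the tumour suppressor locus of p16 and p19ARF, had 2, 0 and 0 counts, Cdkn2b had 5, 2 and 1, and Cdkn1c was listed at 0. Men1, the gene of inherited endocrine tumours, was at 33.5 ± 0.915 CPM, and Tert, the telomerase gene, had 26, 13 and 25 counts.

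Imprinted genes were put in a list of 25, drawn up after values were seen. Of these 11 (44%) were detected and 5 were listed at 0, beside 47.0% and 26.5% of all gene names. Nnat, Gnas, Peg3 at 813, 1374 and 1524 CPM, Igf2 at 559.5 ± 90.2 CPM, Ube3a at 182 ± 21.0 CPM and Igf2r at 101 ± 5.10 CPM were high, while 5 members were listed at 0, among them Snrpn, Ndn and Magel2. H19, a noncoding RNA gene beside Igf2, had 2, 1 and 3 counts, and Dlk1 had 1, 0 and 0. The genes of the Y chromosome were low, with Kdm5d at 4.82, 2.77 and 2.66 CPM, Usp9y at 8.16, 3.87 and 2.25 CPM and Ddx3y at 0, 0 and 1 counts.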
